A study of Mus musculus with 1 sample.

Results

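Keratins are the intermediate filament proteins of epithelial cells, and the 48 keratin genes measured in a mouse lung cancer cell line are described here, of 18193 genes measured in all. A gene was a member if a probe set naming 1 gene carried a symbol made of Krt and a number, which left out the keratin-associated proteins of hair (Krtap) and gave 61 of 34945 one-gene probe sets. The rule itself uses names and no signal, although it was set with earlier results of these data known. The data came from 1 sample of 1 group, KR Primary, a line grown from a KR tumor of a B6/J mouse. Its cells are labelled lung cancer cells, and the series is titled as one of lines from mouse kras tumors. KR is not spelled out in the labels, which also do not say whether the line is 1 clone. The cells grew in RPMI1640 medium with 10% serum and were collected at 80 to 90% confluency, and 150 ng of total RNA was labelled and hybridized to 1 Affymetrix array. There was no replicate and no second condition, so the values below carry neither a spread between replicates nor a test.

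Keratin filaments are built from pairs of a type I (acidic) and a type II (basic) keratin, and neither type forms a filament alone. Which pairs a cell makes depends on the kind of epithelium. Single-layered (simple) epithelia, such as that of alveoli, are known for Krt8 with Krt18, often with Krt7 and Krt19. The basal layer of stratified epithelia and airway basal cells are known for Krt5 with Krt14 and Krt15, and the layers above it (suprabasal) switch to Krt1 with Krt10 in skin or Krt4 with Krt13 in moist linings. Krt6a, Krt6b, Krt16 and Krt17 are made by activated cells of wounds and by skin appendages, and further sets are made by the hair root sheath and by the hard hair shaft. Keratin genes lie in a pair of loci, on mouse chromosomes 11 and 15.

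A probe set gives 1 signal in arbitrary fluorescence units. Probe sets differ in brightness for the same amount of RNA, so signals do not order the genes by RNA amount, and each was judged against a background on the same array. The background was 126 probe sets for olfactory, vomeronasal and bitter taste receptors and keratin-associated proteins, with a median signal of 6.41. Its 95th percentile, 16.8, is called the line, and its highest value, 60.6 for Krtap12-1, the upper limit. A gene was called above a threshold when its highest probe set exceeded it. Epithelial markers were present, with 6 of 6 above the upper limit, against 47.5% of all genes. They ran from Cdh1 (E-cadherin) at 4069.5 to Esrp1 at 760. Lung identity markers were low: Nkx2-1, the regulator of lung epithelial identity, read 7.66 and Scgb1a1, the club cell secretory protein, 1.38, while Sftpb at 28.9 and Sftpc at 21.1 exceeded only the line. Of the fibroblast list 1 of 8 genes passed the line (signals 3.95 to 19.3) and of the leukocyte list 1 of 6 (3.34 to 47.1). Of the endothelial list 2 of 5 did (4.12 to 30.3). Over all genes 63.3% passed the line. None of the 19 genes of the fibroblast, leukocyte and endothelial lists passed the upper limit, against 47.5% of all genes. The part of other cells in the keratin signals was not tested.

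Of the 48 keratins, 20 (41.7%) were above the line, against 63.3% of all measured genes, and 11 (22.9%) were above the upper limit, against 47.5% of all genes. The median signal, taking each gene's highest probe set, was 10.97 for keratins and 48.3 for all genes. Genes with more probe sets pass more often, and 39 keratins had only 1. Of these 15 (38.5%) passed the line, against 48.4% of all genes measured by a single one. With the keratin-associated proteins left out of the background, the upper limit fell to 19.2 and 20 keratins were above it, against 60.8% of all genes. Although fewer keratins passed than genes in general, 4 of the 48 were among the highest 1% of gene signals on the array. These were Krt18, Krt8, Krt7 and Krt19, and the next keratin, Krt23, read 746.

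**Figure D1:**
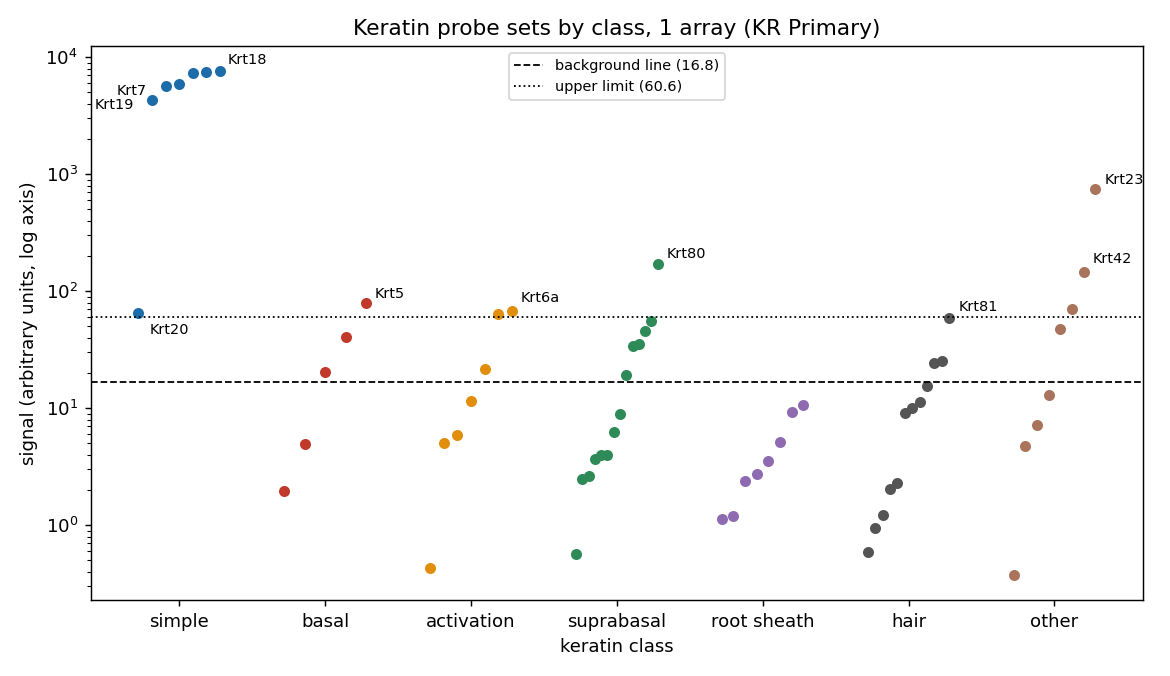
Signals of the 61 keratin probe sets (vertical axis, arbitrary units on a log scale) by keratin class, with 1 point per probe set spread sideways in order of signal, the background line at 16.8 dashed and the upper limit at 60.6 dotted. The simple class holds the 6 highest points, Krt23 stands next at 746, and all root sheath points lie under the line.

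The stretches just upstream of 6 of these genes are shown first, because they belong to the keratins with the highest signals for which an entry was found and to Krt5 and Krt20, a basal and a simple keratin only a little above the upper limit. They are the 250 bases before the annotated start in RefSeq, build GRCm38.p6, written 5′ to 3′ along the gene's strand. Capitals mark TATA-like letters (TATAAA or ATAAAA, on either strand, beginning at most 50 bases before the start) and the E-box CACCTG (on either strand, read CAGGTG on the other).
Krt18, chr15:102027966-102028215, + strand: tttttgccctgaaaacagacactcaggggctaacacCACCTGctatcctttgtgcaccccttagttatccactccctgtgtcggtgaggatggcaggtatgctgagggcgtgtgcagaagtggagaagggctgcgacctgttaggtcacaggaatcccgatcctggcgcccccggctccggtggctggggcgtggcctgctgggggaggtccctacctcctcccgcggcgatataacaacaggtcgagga
Krt8, chr15:102004343-102004592, - strand: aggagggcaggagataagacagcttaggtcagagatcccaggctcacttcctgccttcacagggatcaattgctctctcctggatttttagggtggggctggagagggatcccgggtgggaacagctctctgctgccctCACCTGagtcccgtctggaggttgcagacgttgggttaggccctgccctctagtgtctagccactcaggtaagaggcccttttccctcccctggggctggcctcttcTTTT
Krt7, chr15:101412153-101412402, + strand: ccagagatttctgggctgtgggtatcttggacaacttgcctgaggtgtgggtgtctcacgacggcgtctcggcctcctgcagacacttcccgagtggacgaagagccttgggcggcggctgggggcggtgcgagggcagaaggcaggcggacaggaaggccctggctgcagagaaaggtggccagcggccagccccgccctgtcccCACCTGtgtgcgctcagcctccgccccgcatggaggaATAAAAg
Krt23, chr11:99493121-99493370, - strand: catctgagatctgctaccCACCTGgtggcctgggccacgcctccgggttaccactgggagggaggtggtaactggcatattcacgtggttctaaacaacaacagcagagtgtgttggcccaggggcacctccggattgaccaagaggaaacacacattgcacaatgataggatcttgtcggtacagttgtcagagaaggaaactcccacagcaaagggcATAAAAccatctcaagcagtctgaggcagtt
Krt5, chr15:101712906-101713155, - strand: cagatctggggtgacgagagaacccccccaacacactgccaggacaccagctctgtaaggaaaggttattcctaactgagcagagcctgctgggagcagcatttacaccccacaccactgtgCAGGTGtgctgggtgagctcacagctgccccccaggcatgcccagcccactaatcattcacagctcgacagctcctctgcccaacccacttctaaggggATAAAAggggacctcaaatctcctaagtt
Krt20, chr11:99438154-99438403, - strand: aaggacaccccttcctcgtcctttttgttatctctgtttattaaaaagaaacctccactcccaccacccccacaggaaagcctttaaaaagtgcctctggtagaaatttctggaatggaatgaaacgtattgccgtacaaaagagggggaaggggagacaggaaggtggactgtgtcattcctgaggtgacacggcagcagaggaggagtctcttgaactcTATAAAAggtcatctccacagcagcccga
In Krt8 the TATA-like letters were those of the opposite strand. They began 4 bases before the annotated start and ran on past it, and only the part before the start is printed. On the gene's own strand, such letters began 7 bases before the start in Krt7, 31 in Krt23 and 29 in Krt5 and Krt20. Krt18 held neither TATAAA nor ATAAAA, although the shorter run tataa stands unmarked near the end of its printed stretch.

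An entry was found for 32 of the 48 keratins, 33 promoters in all because Krt13 has a pair. The motifs were chosen after some of these sequences were seen, so the shares below describe these promoters and are not a test. TATAAA or ATAAAA, which overlap where the letters are TATAAAA, occurred on either strand between 50 bases before and 20 bases after the start in 23 of 33 keratin promoters (69.7%) and in 7.19% of all 32851 promoters of the table. Among keratins above the upper limit 5 of 8 promoters held it, and among the others 18 of 25. CACCTG within the 250 upstream bases was found in 6 of 8 promoters of keratins above the upper limit, namely Krt18, Krt8, Krt7, Krt23, Krt5 and Krt79, in 5 of the other 25, and in 17.2% of all promoters. GGGCGG, the core of a GC box, was in 2 of 33 (Krt7 and Krt75) and in 32.7% of all promoters. TGANTCA, with any base at N, was in 2 of 33, both of Krt13, and in 6.75% of all. This pattern includes the letters bound by AP-1 factors but is wider than them. A match is a run of letters and was not tested as a binding site.

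All 5 simple keratins were above the upper limit, against 47.5% of all genes. Of these 5, 4 were among the highest signals on the array. Krt18, the type I partner of Krt8, read 7600.2 on its only probe set and ranked 5th of 18193 genes by signal. Krt8, the type II member of the pair, read 7422, 7330.3 and 5844 on its 3 probe sets, ranking 9th. The 3 readings of Krt8 lay close together, with an SD of 0.19 on the log2 scale and 1.27-fold between the highest and the lowest. The lower pair came from probe sets whose names end in _x_at, which can take signal from more than 1 gene, whereas the highest did not. Krt7, a type II keratin of glandular and airway epithelium, read 5723 and ranked 54th. Krt19, a type I keratin of simple and ductal epithelia, read 4306 and ranked 122nd. Both type I and type II partners were thus among these 4. The fifth simple keratin, Krt20, known from gut lining and urothelium, read 65.6, just above the upper limit and at the 53.3rd percentile of genes.

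The basal keratins read far lower than these 4, near the upper limit or below it. Krt5, the type II keratin of basal cells, read 78.8 on its only probe set. Krt14, its type I partner, read 40.6, 20.6 and 4.95 on 3 probe sets, so that 2 exceeded the line but not the upper limit. Krt15, another type I basal keratin, read 1.94, below the background median. Of the 3 basal keratins, 2 (66.7%) thus exceeded the line, near the 63.3% of all genes. Krt5 alone (33.3%) exceeded the upper limit, against 47.5% of all genes. Trp63, the regulator of basal epithelial cells, read 11.05 on the highest of its 4 probe sets and did not pass the line.

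Among the activation keratins only Krt6a passed either threshold, 1 of 4 (25%), against 63.3% and 47.5% of all genes. Krt6a read 68.2, 63.9 and 21.7 on its 3 probe sets, all above the line and the first pair above the upper limit. Its near copy Krt6b read 5.07, and the type I members Krt16 and Krt17 read 11.6 and at most 5.95. Krt17 was low on both of its probe sets, the second reading 0.435. A type II keratin of this class was thus above background, while the type I keratins usually made with it were under the line. Probe sets for such similar genes can share signal, and how far they did was not tested.

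Of the 10 suprabasal keratins measured, 5 (50%) exceeded the line and 1 (10%) the upper limit, against 63.3% and 47.5% of all genes. That one was Krt80, a type II keratin of differentiating epithelial cells, at 171. Krt10, the type I keratin of suprabasal epidermis, read 55.5, and its partner Krt1 read 3.95. Krt4, of moist stratified linings, gave 45.5 and 35.7, and its partner Krt13 read at most 6.28 on 3 probe sets. In both of these known pairs 1 partner was between the thresholds and the other under the line. Krt78 at 33.7 and Krt77 at 19.3 also passed the line. Krt12 of the cornea at 8.90, Krt76 at 3.68 and Krt2 of the upper epidermis at 2.47 did not. With the line at the 99th percentile of the background, 35.5, which 53.2% of all genes exceeded, the class fell from 5 genes to 3.

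No keratin of the hair root sheath or hair shaft exceeded the upper limit of the full background, 60.6. None of the 8 root sheath keratins passed the line, and their signals ran from 1.12 for Krt26 to 9.25 for Krt71 and 10.6 for Krt75, with a median of 3.10. All of these are within the range of background genes. Of the 12 hair shaft keratins, 3 (25%) exceeded the line, against 63.3% of all genes, and the upper limit of 60.6 was reached by none. The 3 were Krt81, a type II hair keratin, at 59.1, Krt32, a type I hair keratin, at 25.4, and Krt84 at 24.2. The other 9 ran from 0.591 for Krt33a to 15.3 for Krt36. The hair count depends on the background, since keratin-associated proteins, which are made in the same hair cells, are part of it and supply its 3 highest values of 60.6, 42.2 and 21.0. Without them the line fell to 15.1, which 65.4% of all genes exceeded, and 4 hair keratins passed it, Krt36 being added. The upper limit then fell to 19.2, which 60.8% of all genes exceeded, and Krt81, Krt32 and Krt84 were above it. With the full background and its 99th percentile 1 of 12 passed, Krt81.

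**Figure D2:**
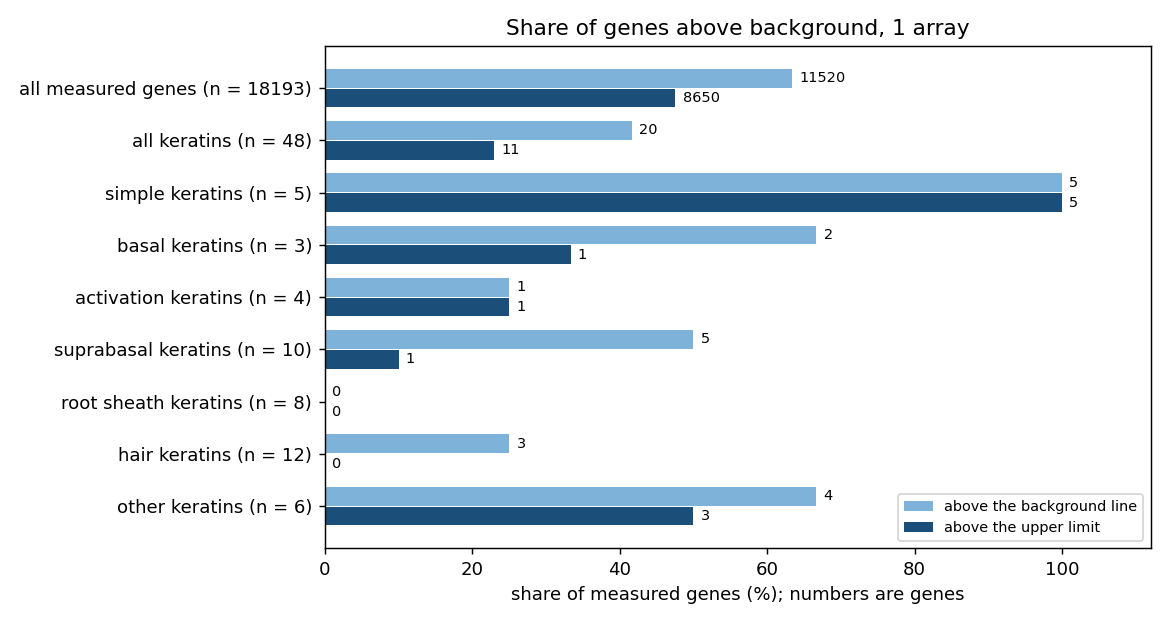
Percentage of measured genes above the line (light bars) and above the upper limit (dark bars) for all genes, all keratins and each keratin class, with the number of genes at the end of each bar. The simple class is at 100% for both, hair keratins reach 25.0% and 0%, and root sheath keratins are at 0% for both.

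A further 6 keratins belonged to none of these classes, and 4 of them (66.7%) passed the line, near the 63.3% of all genes. The upper limit was passed by 3 (50%), near the 47.5% of all genes. Krt23, a type I keratin, gave the fifth highest keratin signal, 746, at the 88.9th percentile of genes. Krt42, a type I keratin related to Krt17, read 145 on a probe set ending in _x_at and 7.21 on the other. Krt42 was therefore above the upper limit on 1 of its pair only, and was not above the line when _x_at and _s_at probe sets were left out, a setting in which 62.5% of all genes were above it. Krt79, a type II keratin of the hair canal, read 69.8, and Krt88 read 48.0. Krt24 at 4.75 and Krt222 at 13.0 and 0.375 did not pass.

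In all, 9 keratins had over 1 probe set, which is the only repeat measurement on the array, although it mixes probe brightness, transcript forms and noise. The SD between probe sets of a gene ranged from 0.19 for Krt8 to 3.62 for Krt222 on the log2 scale, with a median of 1.55, against 1.45 over the 9010 such genes of the array. In 2 of the 9, Krt14 and Krt42, probe sets fell on both sides of the line, against 32.9% of all such genes. The 3 probe sets of Krt8 and the pair of Krt4 agreed most closely. Krt12, Krt13, Krt17 and Krt222 were under the line on every probe set.

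**Figure D3:**
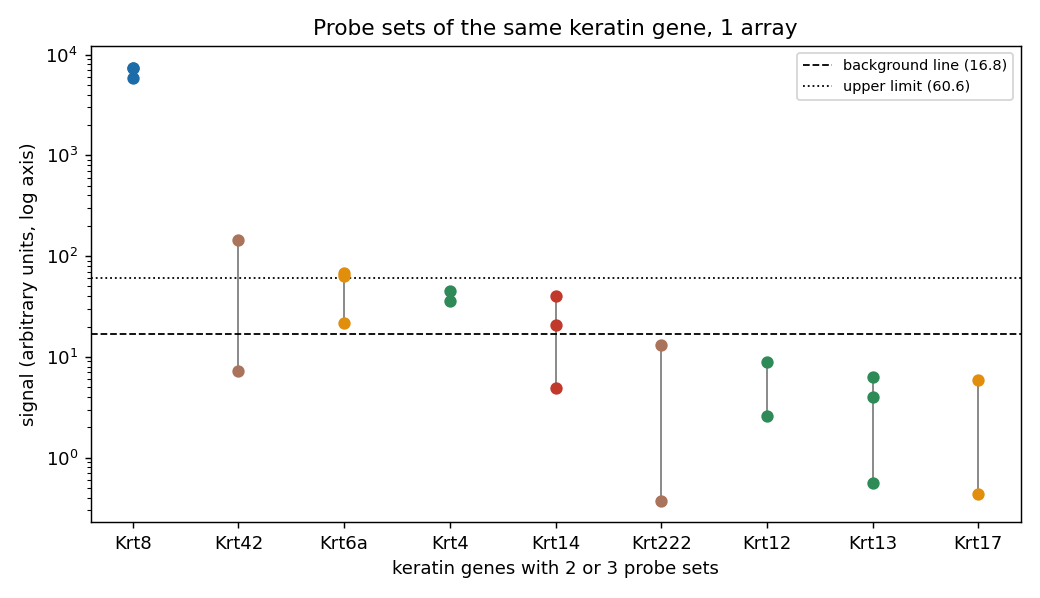
Signals (arbitrary units, log axis) of each probe set of the 9 keratins that had 2 or 3, joined by a grey bar from lowest to highest. The Krt8 probe sets lie together between 5844 and 7422, while those of Krt42 span both thresholds from 7.21 to 145.

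By filament type, 8 of 24 type I keratins (33.3%) and 12 of 23 type II keratins (52.2%) passed the line. Both shares were below the 63.3% of all genes. Above the upper limit were 5 (20.8%) and 6 (26.1%), against 47.5% of all genes. Median signals were 7.48 for type I and 19.3 for type II. Krt222 was counted in neither type. Each type placed 2 members in the highest 1% of signals, Krt18 and Krt19 for type I and Krt8 and Krt7 for type II. The difference in shares was not tested, because genes are not replicates.

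Along the loci, the highest keratins did not lie in 1 block. In the RefSeq gene table (GRCm38.p6, used for order only), 26 protein-coding keratin genes are placed on chromosome 15, of which 24 were measured. Krt74 and Krt85 are not placed in either locus there, so the neighbours below are those of that source. Krt8 and Krt18 are the last 2 keratin genes at one end, with no protein-coding gene between them, and Krt7 is the 2nd from the other end, next to Krt80. The 20 measured keratins between Krt7 and Krt8 read from 1.22 to 78.8. Of these, 3 (15%) passed the upper limit, Krt5, Krt6a and Krt79, against 47.5% of all genes. Krt5 and Krt6a are neighbours in this stretch. On chromosome 11, with 27 keratin genes of which 24 were measured, Krt19 stood alone at 4306, with Krt15 at 1.94 and Krt14 at 40.6 as its nearest measured neighbours. The other 23 measured there read from 0.591 to 746, with a median of 6.28. Krt20 and Krt23, at 65.6 and 746, lie side by side, and the root sheath genes Krt25, Krt26, Krt27 and Krt28 form a run in which all read under 4.

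**Figure D4:**
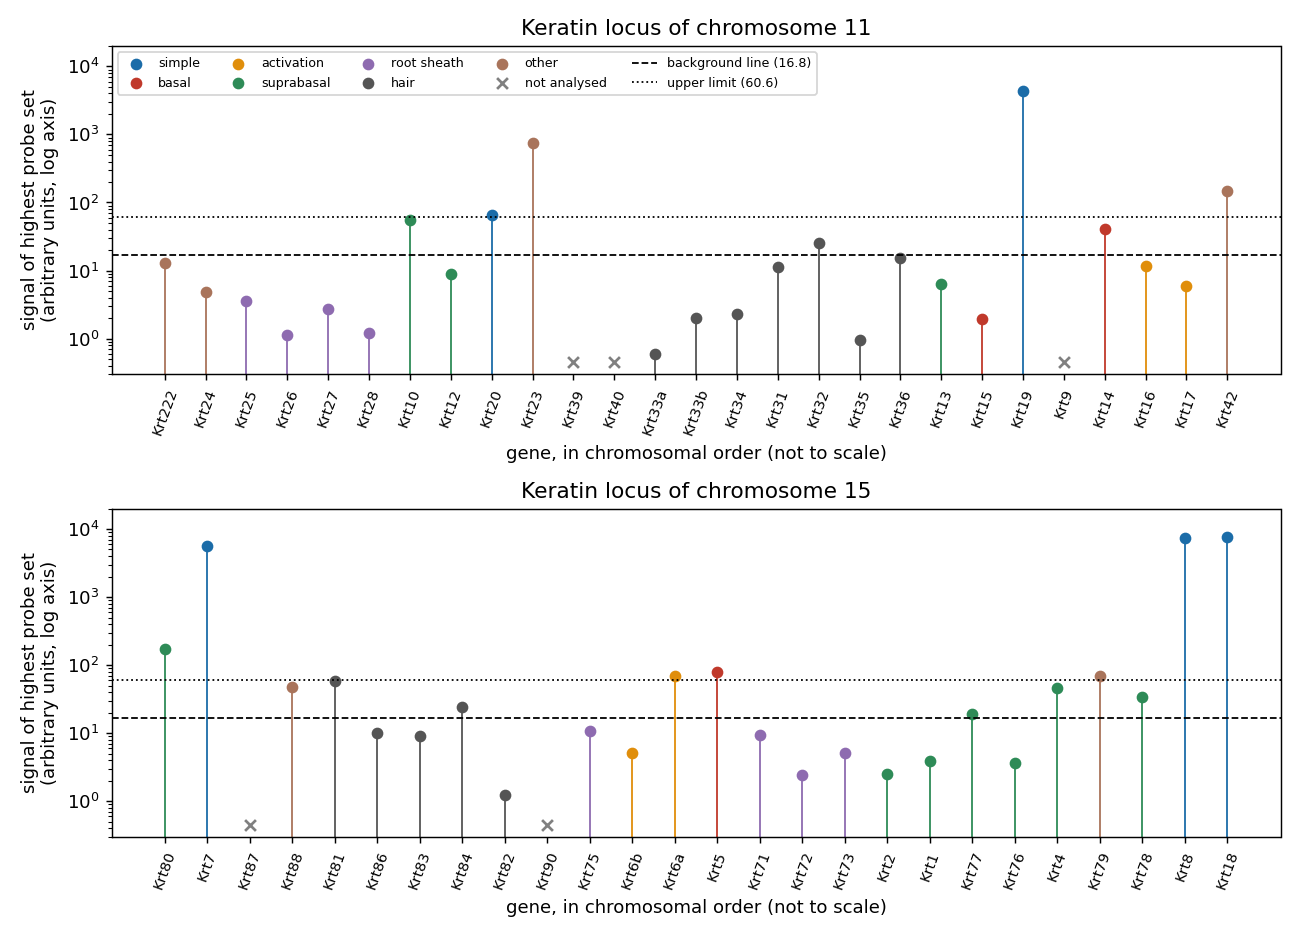
Signal of the highest probe set of each keratin (arbitrary units, log axis) in chromosomal order on chromosomes 11 and 15, coloured by class, with grey crosses for genes not analysed here. Krt7, Krt8 and Krt18 stand near the ends of the chromosome 15 locus and Krt19 stands within the chromosome 11 locus, while the genes between them lie mostly under the upper limit.

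Genes that anchor or accompany keratin filaments were also measured. All 11 linker genes, which tie keratins to junctions or to other filaments, were above the upper limit, against 47.5% of all genes. Only 5 of the 11 had a single probe set, and these 5 passed the line, against 48.4% of all such genes. Their median signal was 438, against 48.3 for all genes. Dsp (desmoplakin, which binds keratins at desmosomes) read 2264, Plec (plectin, a cross-linker) 1747 and Pkp2 (a desmosomal plaque protein) 1140, on the highest of their 3 or 4 probe sets. The lowest were Evpl (envoplakin) at 181 and Pkp1 at 160. Of the hemidesmosome list, whose complex anchors keratins to the basement membrane, 5 of 6 (83.3%) passed the upper limit. Itga6 read up to 4146, Cd151 up to 2116 and Dst up to 495, while the lowest probe set of Cd151 read 19.5. Itgb4 read 527, and Col17a1 at 4.93 did not pass the line. Plec and Dst stand in both lists.

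The desmosomal cadherins were mostly low, with 2 of 6 (33.3%) above the line, against 63.3% of all genes. Above the upper limit was 1 of the 6 (16.7%), against 47.5% of all genes. Dsg2, the form found in simple epithelia, passed the line on all 6 probe sets, which read from 23.4 to 1011. Dsc2, the matching desmocollin, read 30.6 and 21.2, and Dsc3 read at most 10.5. The forms of upper epidermis were under the line, Dsc1 at 6.52 and Dsg1b at 3.25. Among other cytoplasmic intermediate filaments 4 of 12 (33.3%) passed the line and 1 (8.33%) the upper limit. That gene was Nes (nestin), at 377, 362 and 135 on its 3 probe sets. Vim (vimentin) read at most 22.8 and Prph at most 21.7, and the lowest were the neurofilament genes Nefl at 5.66 and Nefm at 4.69. All 3 lamin genes, which form the filaments of the nucleus, passed the line, against 63.3% of all genes. Lmna read up to 2083, Lmnb1 514 and Lmnb2 39.8.

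Cornified envelope genes, which build the shell of terminally differentiated skin cells, numbered 11, of which 6 (54.5%) exceeded the line, against 63.3% of all genes, and 3 (27.3%) the upper limit, against 47.5%. Sprr1a (a small proline-rich envelope protein) read 568, Ivl (involucrin) 438 and 90.0 on its pair, and Tgm1 (the envelope cross-linking enzyme) 87.0. Krtdap at 0.730 and Hrnr at 0.612 were lowest, and Flg (filaggrin) read 3.62. Of 15 regulators of keratin genes or of epithelial fate, 10 (66.7%) passed the line and 8 (53.3%) the upper limit, shares near the 63.3% and 47.5% of all genes. On their highest probe sets Ets2 read 2059, Klf4 953 and Klf5 727. On their lowest Klf4 read 298, while Ets2 at 13.8 and Klf5 at 7.42 were under the line. Hoxc13, which controls hair keratins, read 1.005, and Zfp750, which acts in epidermal differentiation, read 1.01.

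**Figure D5:**
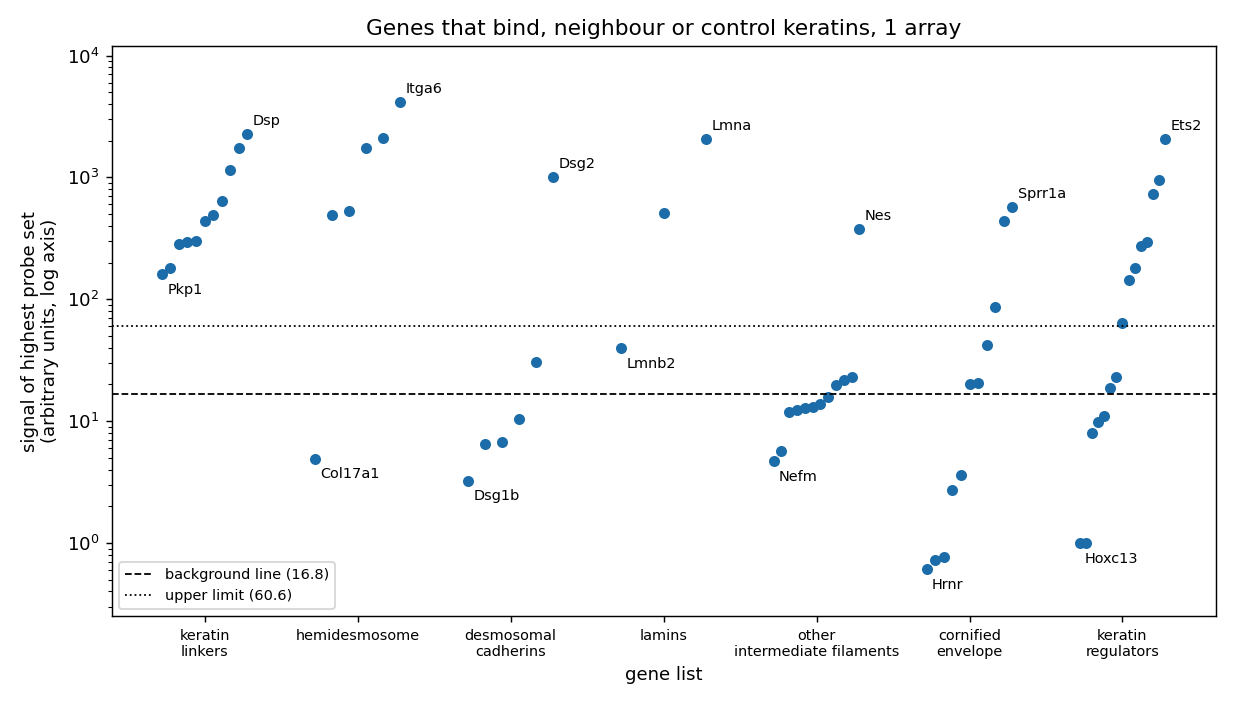
Signal of the highest probe set (arbitrary units, log axis) of each gene in 7 lists of genes that bind, accompany or control keratins, with the lowest and highest gene of each list named and the thresholds as dashed (16.8) and dotted (60.6) lines. All linker genes lie above the upper limit, whereas desmosomal cadherins and other intermediate filaments have 1 gene each above it.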

How the data were processed

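Total RNA of 1 cell culture was extracted with Trizol and labelled cRNA was hybridized to 1 Affymetrix array (labels' protocols). Each probe set has 1 deposited intensity, on a linear scale by its values. The submitters' processing notes name Affymetrix Expression Console as the software. Its algorithm, and whether the whole array was scaled, is not given in the sources used here. Of 45101 probe sets, 64 controls were left out and 34945 named 1 gene in the platform annotation. Symbols were updated by gene ID with RefSeq (GRCm38.p6) for 34741, and 204 kept the annotated symbol. All 48 keratins matched the RefSeq table.

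Signals were taken to log2, and a gene's level was its highest probe set. Percentiles and counts were computed with Python 3.11.15, numpy 2.4.6 and pandas 2.3.3. The calling code was run on simulated data in which expressed probe sets were set far above background. That run does not test calls near the thresholds. Members, keratin classes and gene lists were chosen with earlier results of these data known. Values were to be named for every keratin above the upper limit or in the simple, basal and activation classes, for the 2 highest and the lowest of other classes, and for the 3 highest and 2 lowest of each other list. Genes named beyond that rule, among them the remaining keratins, Trp63, Vim and Flg, were chosen after their values were seen. The classes are textbook ones, and Krt9, Krt39, Krt40, Krt74, Krt85, Krt87 and Krt90 were not analysed here. Protein sequences were not used here. The single array limits the precision.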

Additional observations from a re-analysis of the deposited data

Results flagged for a closer look

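A probe set outside the gene counts named both Krt17 and Krt14 and read 18.7, above the line of 16.8 and under the upper limit of 60.6. It stands here because the report's counts use only probe sets that name 1 gene. Its signal cannot be assigned to either gene. The one-gene probe sets read at most 5.95 for Krt17 and 40.6, 20.6 and 4.95 for Krt14.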

How the results depend on the processing

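Of 97 alternative counts, 91 stayed within 1.5 times the reported one. With the line at the 99th percentile (35.5), hair keratins above it fell from 3 to 1, suprabasal keratins from 5 to 3, desmosomal cadherins from 2 to 1 and other intermediate filaments from 4 to 1. The share of all genes above it fell from 63.3% to 53.2%. With a gene's median probe set in place of its highest, other intermediate filaments fell from 4 to 2, and all genes from 63.3% to 57.8%. Without keratin-associated proteins in the background, 20 keratins in place of 11 were above the upper limit. So were 60.8% of all genes in place of 47.5%. All keratins above the line numbered from 16 to 21 across the alternatives, simple keratins 5 of 5 and root sheath keratins 0 of 8 in each. The share of all genes above the line ran from 53.2% to 66.7%. A background without keratin-associated proteins at its 99th percentile, an alternative chosen after seeing the data, gave 20 keratins above the line. In that setting 61.9% of all genes were above it. No paired analysis was possible because there was 1 sample. Signals between 16.8 and 60.6, where 9 keratins lie, are also reached by background genes. Of the keratins above the line, Krt32, Krt77, Krt78 and Krt84 were no longer above it at the 99th percentile, and Krt42 was not without _x_at and _s_at probe sets.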

Other observations

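The 250 upstream bases of keratin promoters differed in base composition. For the 8 keratins above the upper limit with an entry, the GC content had a median of 57% and ran from 48.0% for Krt20 to 66.0% for Krt7. For the other 25 promoters the median was 44.8%, from 36.8% for Krt24 to 58.8% for Krt78, and over all 32851 promoters it was 52.4%. The ranges overlap, and the counts of CACCTG and GGGCGG share this base composition. The part of composition in those counts was not tested.

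Of the 9 keratin probe sets with names ending in _x_at, 6 exceeded the line and 3 the upper limit, 2 of Krt8 and 1 of Krt42. Over all one-gene probe sets of the array, 60.9% exceeded the line and 41.1% the upper limit.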
